A study of Mus musculus with 8 samples.

Results

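The RNA deaminases measured here are a family of enzymes and enzyme-like proteins that act on bases within RNA, and they are described in the brains of mice that lack 1 of them, ADAR2. Adenosine deaminases acting on RNA bind double-stranded RNA and turn adenosine into inosine, which the ribosome reads as guanosine. In the brain this recodes transcripts of receptors and channels, and the best known site lies in Gria2, where editing by ADAR2 replaces glutamine by arginine in the pore of AMPA receptors. Related enzymes deaminate transfer RNA, and the APOBEC family acts on cytidine.

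The set holds 7 genes with 12 of the 20794 spots on the array, listed by gene name with earlier results of these data known. Which spots carry these names rests on a shift found in the data, described below. Adarb1 (gene identifier 110532), which encodes ADAR2, had 3 spots. Adar (56417), which encodes ADAR1, and Adarb2 (94191), which encodes ADAR3, had 1 spot each. Adad1 (21744) had 3 spots, Adat1 (30947) and Adat2 (66757) had 1 each, and Apobec2 (11811) had 2. The probe sequences were not used here, so which part of a transcript a spot covers is not known, and a spot outside the disrupted part of Adarb1 would check nothing.

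The mutants are labelled ADAR-/-/GluR-BR/R in the series' design and ADAR2 in its title. They lack ADAR2 and carry alleles of Gria2 that encode the arginine form of GluR-B without editing. The RNA came from brains of 4 mutant males at 19 weeks of age and was set against pooled brain RNA of age-matched wildtype males, so no control carried either allele alone. The design counts 4 mice in the pool and the labelling protocol 6 animals. Each mutant was hybridised on 2 of 8 arrays, once with mutant RNA in Cy5 (the Cy5 orientation) and once with it in Cy3 (the Cy3 orientation), so that mice, not arrays, were the replicates (n = 4). The pool is a single control sample, so no test below holds the spread between wildtype mice. In brain RNA, fewer cells of a type and less RNA per cell cannot be told apart.

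The arrays held 20211 to 20559 values each. A deposited value is a log2 ratio of the channels plus a constant for the array, so the array's median was subtracted throughout. A ratio gives no level, so the labelled tissue was not checked against its markers. Of the 93 values of the 12 spots, 5 matched a ratio of whole numbers up to 10, as weak spots do, and none of these belonged to Adarb1, Adarb2 or Adad1. Which channel is the numerator is not stated in the sources used here. Each spot is therefore described by the mean ratio, the average of a mouse's 2 arrays, and by the swap component, the Cy5 orientation minus the Cy3 orientation divided by 2. The mean ratio compares mutant and pool if the ratios have the same numerator RNA on every array. The swap component gives mutant over pool if every ratio is Cy5 over Cy3, and no direction below is settled beyond these readings. Arrays of a mouse correlated at r = 0.257 to 0.392 across 18797 spots, and arrays of different mice with the mutant in Cy3 at 0.459 to 0.680.

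Adarb1, the disrupted gene, had lower values with the mutant in Cy5 than with the mutant in Cy3 at 2 of its 3 spots. With the mutant in Cy5, spot 18422 read -1.25, -0.93, 0.12 and -0.07 in mice 1 to 4. With the mutant in Cy3 it read 1.97, 1.98, 1.96 and 1.82. The ranges of the orientations did not overlap, and the 4 values with the mutant in Cy3 lay close together (SD 0.0757). How many of all spots had orientations without overlap was not counted, here or for the spots below. Over all spots the arrays with the mutant in Cy3 had the wider spread. Spot 18759 read -1.97, -1.005, -0.37 and -0.95 with the mutant in Cy5. With the mutant in Cy3 it read -0.71, 3.47, 1.60 and 1.97, so that mouse 1 alone had a negative value there and fell within the range of the other orientation. Spot 14946 read 0.34, 0.03, -0.28 and -0.02 with the mutant in Cy5 and 0.79, 0.30, 0.16 and -0.39 with the mutant in Cy3. Its orientations overlapped over most of their range.

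**Figure D1:**
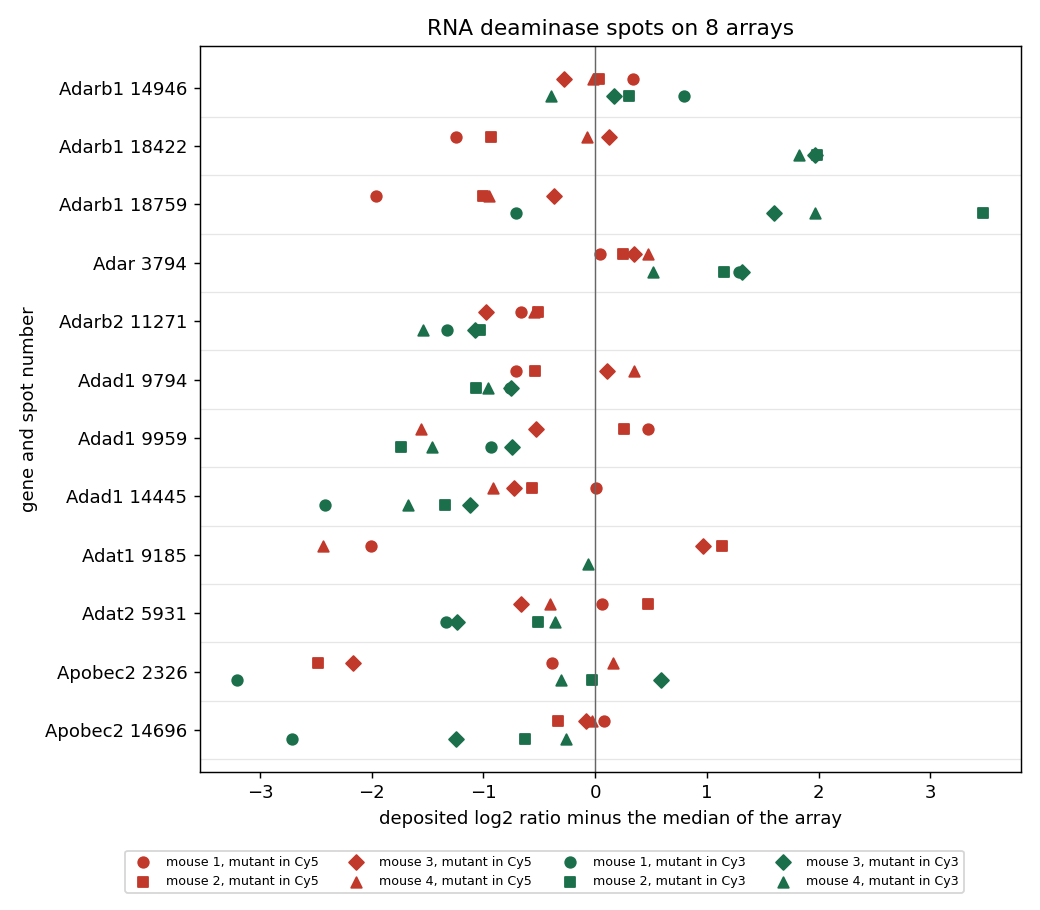
Log2 ratio minus the array's median (x axis) of each of the 12 spots of the 7 RNA deaminase genes (y axis), with 1 symbol per mouse, red for the mutant in Cy5 and green for the mutant in Cy3. At Adarb1 spot 18422 the green symbols lie between 1.82 and 1.98 and the red ones between -1.25 and 0.12, while Adarb2 is negative and Adar positive on all 8 arrays.

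The swap component of Adarb1 was -1.61, -1.46, -0.92 and -0.94 in mice 1 to 4 at spot 18422 and -0.63, -2.24, -0.99 and -1.46 at spot 18759. All 4 mice were negative at both spots. The averages were -1.23 ± 0.163 (moderated SE of limma, n = 4) and -1.33 ± 0.267, and both passed the limma test over 18797 spots (adjusted p = 0.0383 and 0.0424). Read as Cy5 over Cy3, these are levels 2.35-fold and 2.51-fold lower in the mutants than in the pool. By orientation spot 18422 averaged -0.53 ± 0.662 (SD, n = 4) with the mutant in Cy5 and 1.93 ± 0.0757 with the mutant in Cy3. The former did not pass (limma adjusted p = 0.293). Opposite directions under the same numerator RNA on every array were thus not shown, and which reading holds was not tested. Spot 14946 stood at -0.10 ± 0.127 (limma adjusted p = 0.628). Per mouse it lay above spot 18422 by 1.13 ± 0.307 (SD, n = 4) and above spot 18759 by 1.23 ± 0.783 (exact sign-flip p = 0.125 for each, two-sided, the smallest that 4 mice allow, and 0.375 after adjustment over 6 comparisons of Adarb1 spots).

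Of the spots tested for the swap component 7.84% passed in either direction, 1.41% with a positive and 6.43% with a negative value. Adarb1 supplied the only calls among the deaminases, 2 of 11 spots tested. By size its spots 18759 and 18422 ranked 4 and 8 from the most negative of 18797. Under 12 other treatments of the data spot 18759 lay between -1.58 and -1.02 and spot 18422 between -1.93 and -0.53, the latter in the Cy5 orientation alone. The ranks there ran from 1 to 1069 for spot 18759 and from 4 to 3833 for spot 18422. Both were furthest from the top in the Cy5 orientation alone, of 19898 spots. In the Cy3 orientation alone they ranked 763 and 134 of 19308. A single orientation holds no swap component, so array values stood in its place, with the sign turned for the Cy3 orientation. With values as deposited, no spot on the array passed (adjusted p = 0.0591 for spot 18422 and 0.0642 for spot 18759, limma; background 0%), and 5785 had an unadjusted p below 0.05. No spot passed either with any single mouse left out (4106 to 5417 at an unadjusted p below 0.05), where adjusted p of these spots was 0.0991 to 0.162. With all arrays scaled to the same spread they stood at -1.13 and -1.40 (adjusted p = 0.176 for each), at ranks 64 and 27.

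**Figure D2:**
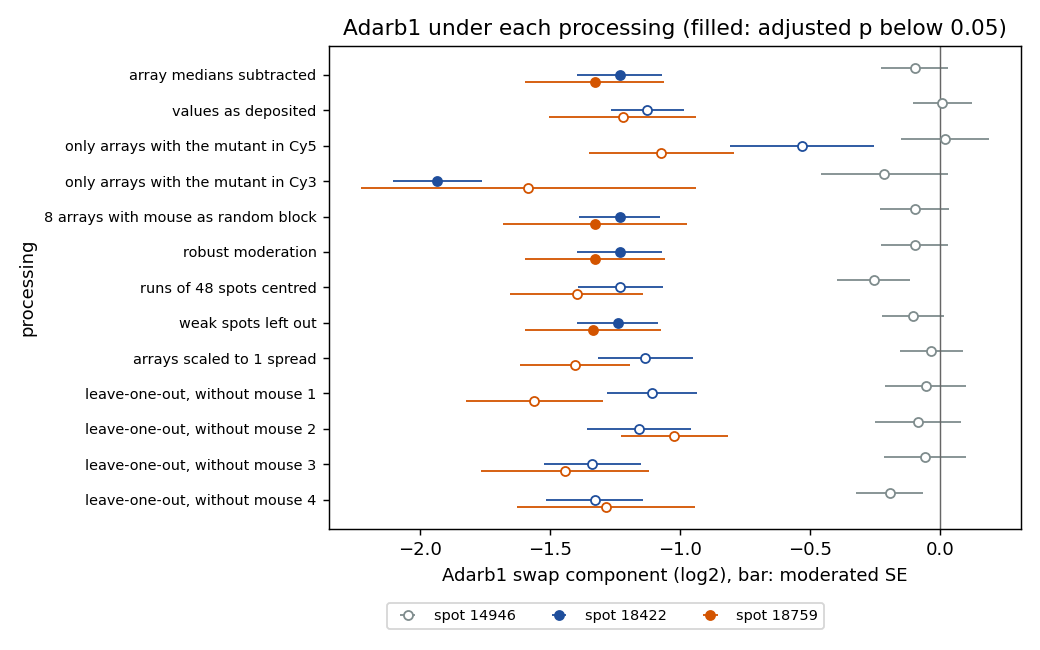
Swap component of the 3 Adarb1 spots (x axis, log2, with the moderated SE of limma as bars) under each processing (y axis), filled where the adjusted p was below 0.05. Spots 18422 and 18759 stay below 0 in every row and are filled in some of them, while spot 14946 stays between -0.26 and 0.02. Rows with a single orientation show array values and no swap component, with the sign turned for the Cy3 orientation.

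In the mean ratio 1 of the 3 spots of Adarb1 passed. Spot 18422 had 0.36, 0.53, 1.04 and 0.88 in mice 1 to 4, an average of 0.70 ± 0.168 (moderated SE, n = 4, limma adjusted p = 0.0297). It missed the threshold as deposited (0.54, adjusted p = 0.0962), without mouse 2, 3 or 4 (adjusted p = 0.0796 to 0.0961) and with arrays scaled to the same spread (0.32, adjusted p = 0.38). In the Cy5 orientation alone it was -0.53. Spot 18759 had -1.34, 1.23, 0.62 and 0.51, with mouse 1 apart from the others, and averaged 0.26 ± 0.422 (adjusted p = 0.667). Spot 14946 averaged 0.12 ± 0.174 (adjusted p = 0.631). The averages of the 3 spots were all positive, and no difference between them was shown (exact sign-flip p = 0.25 to 1, two-sided, where 4 mice allow 0.125 at the lowest). None of these spots had the same sign on all 8 arrays.

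Across all 18797 spots the mean ratio and the swap component were related (r = -0.563), and this fell to 0.0478 with the arrays scaled to the same spread. Before scaling, the median absolute deviation averaged 1.15 on the arrays with the mutant in Cy3 and 0.634 on the others. Adar and the 3 Adarb1 spots had a positive mean ratio and a negative swap component. Adarb2, Adat2, the 3 Adad1 spots and Apobec2 spot 14696 had both signs the other way, and Apobec2 spot 2326 was negative in both. Spot 18422 and spot 18759 lie below the body of spots in the plot of both quantities, whereas the other deaminases lie within it.

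**Figure D3:**
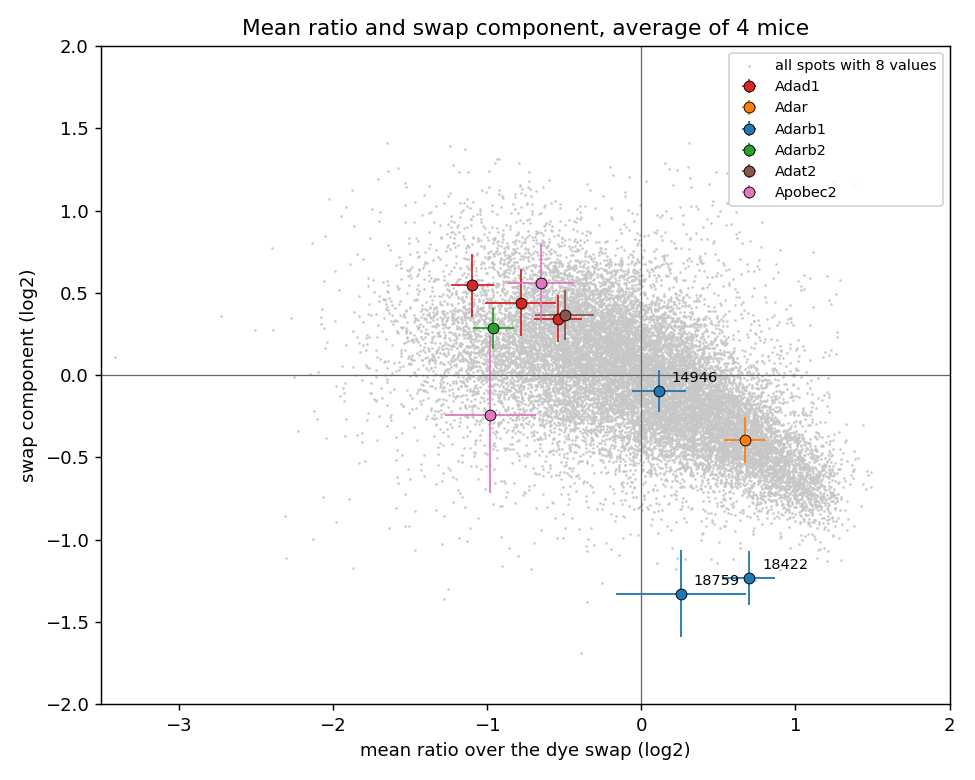
Mean ratio over the dye swap (x axis, log2) and swap component (y axis, log2) of the 18797 spots with values on 8 arrays (grey) and of the deaminase spots among them (coloured by gene, with moderated SE of limma as bars). Adarb1 spots 18422 and 18759 lie below the cloud at -1.23 and -1.33 on the y axis, and spot 14946 lies within it.

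Adar encodes ADAR1, the other editing enzyme with known activity in brain, which is needed to mark the cell's own double-stranded RNA. Its spot 3794 read 0.04, 0.25, 0.35 and 0.47 with the mutant in Cy5 and 1.28, 1.15, 1.32 and 0.52 with the mutant in Cy3. Relative to the array's median it was positive on all 8 arrays, only just so in mouse 1 with the mutant in Cy5. The 0.35 of mouse 3 matched a ratio of whole numbers. The orientations did not overlap, though the share of all spots for which this holds was not counted. The mean ratio was 0.66, 0.70, 0.83 and 0.50 in the 4 mice and averaged 0.67 ± 0.134 (moderated SE, n = 4, limma adjusted p = 0.018). It passed as deposited and missed the threshold without mouse 1, 2 or 3 (adjusted p = 0.0516, 0.0736 and 0.0694) and in the Cy5 orientation alone (0.28, adjusted p = 0.324). With values that match a ratio of whole numbers left out it was 0.79 (adjusted p = 0.0273), and the swap component could not be tested there. The swap component was -0.62, -0.45, -0.49 and -0.03, with mouse 4 near 0, and averaged -0.40 ± 0.14 (adjusted p = 0.122). Adar was thus called in the mean ratio and not in the swap component.

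Adarb2 encodes ADAR3, which binds double-stranded RNA in brain and has no known editing activity. Spot 11271 read -0.67, -0.51, -0.98 and -0.55 with the mutant in Cy5 and -1.33, -1.03, -1.08 and -1.55 with the mutant in Cy3. It was negative on all 8 arrays, and the orientations did not overlap. The share of all spots without overlap was not counted, and the arrays with the mutant in Cy3 had the wider spread. The mean ratio was -0.997, -0.77, -1.03 and -1.05 and averaged -0.96 ± 0.133 (moderated SE, n = 4, limma adjusted p = 0.00955), with the smallest spread between mice of the 12 spots (SD 0.128). It passed with any single mouse left out. The other 47 spots of its run of 48 consecutive rows of values had a median mean ratio of -0.73, and with runs centred Adarb2 stood at -0.30 (adjusted p = 0.17). Most of the size of its mean ratio was thus shared by the spots of its run. Whether the rows of a run lie together on the slide was not checked. The swap component was 0.33, 0.26, 0.05 and 0.50, positive in 4 of 4 mice, and averaged 0.28 ± 0.125 (adjusted p = 0.187).

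Adad1 encodes an RNA-binding protein of male germ cells with a domain like that of the adenosine deaminases. Spot 14445 read 0.005, -0.56, -0.73 and -0.92 with the mutant in Cy5 and -2.42, -1.34, -1.12 and -1.68 with the mutant in Cy3. The orientations did not overlap. Its mean ratio was -1.21, -0.95, -0.93 and -1.30 and averaged -1.10 ± 0.141 (moderated SE, n = 4, limma adjusted p = 0.00924), a call that held with any single mouse left out. Spot 9794 read -0.71, -0.54, 0.10 and 0.35 with the mutant in Cy5 and -0.76, -1.06, -0.75 and -0.96 with the mutant in Cy3. Mice 3 and 4 were positive in the first orientation, and no mouse was in the second. The ranges of the orientations did not overlap at this spot either, and how common this is among all spots was not counted. The mean ratio of -0.54 ± 0.157 passed narrowly (adjusted p = 0.0494) and missed the threshold with any single mouse left out (adjusted p = 0.0806 to 0.168), with robust moderation (0.051) and with runs of spots centred (0.101). Spot 9959 read 0.47, 0.26, -0.53 and -1.56 with the mutant in Cy5 and -0.94, -1.74, -0.75 and -1.46 with the mutant in Cy3. It averaged -0.78 ± 0.23 (adjusted p = 0.0516) and passed as deposited (-0.94, adjusted p = 0.0248). With runs of spots centred it stood at -0.34 (adjusted p = 0.304), and the other spots of its run had a median of -0.52. The 3 spots were thus all negative in the mean ratio. Their swap components were 0.54 ± 0.192, 0.34 ± 0.142 and 0.44 ± 0.204 for spots 14445, 9794 and 9959, and none passed (limma adjusted p = 0.121 to 0.203).

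The transfer RNA deaminases gave no call in the mean ratio or the swap component. Adat2 encodes the catalytic subunit of the enzyme that makes inosine at the wobble position of transfer RNA. Its spot 5931 read 0.06, 0.48, -0.66 and -0.41 with the mutant in Cy5 and -1.34, -0.52, -1.24 and -0.36 with the mutant in Cy3, and the orientations overlapped. The mean ratio was -0.50 ± 0.19 (moderated SE, n = 4, limma adjusted p = 0.0977) and the swap component 0.37 ± 0.152 (adjusted p = 0.168). In the Cy3 orientation alone Adat2 passed (-0.86, adjusted p = 0.0425), as did 6625 of 19308 spots there, 7 of them deaminase spots. A single orientation cannot tell dye from genotype. Adat1, which deaminates an adenosine next to the anticodon of alanine transfer RNA, had 5 values of 8 at spot 9185. With the mutant in Cy5 it read -2.01, 1.14, 0.96 and -2.44, so mice 1 and 4 lay far from mice 2 and 3, and the value of mouse 1 matched a ratio of whole numbers. With the mutant in Cy3 mouse 4 alone gave a value, -0.07. The mean ratio of -0.29 ± 0.588 (adjusted p = 0.728) therefore rests on 1 orientation in mice 1 to 3, and no swap component could be tested.

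Apobec2, a member of the cytidine deaminase family known from heart and skeletal muscle, had the widest spread between mice in the swap component among the deaminase spots tested (SD 1.32 at spot 2326). Spot 2326 read -0.38, -2.49, -2.17 and 0.16 with the mutant in Cy5 and -3.20, -0.03, 0.59 and -0.31 with the mutant in Cy3. Mouse 1 was low in the second orientation and mice 2 and 3 in the first. Its mean ratio was -0.98 ± 0.293 (moderated SE, n = 4, limma adjusted p = 0.0539), which passed with runs of spots centred (-1.07, adjusted p = 0.0303) and without mouse 4 (-1.28, adjusted p = 0.043). It was -0.64 (adjusted p = 0.282) with values that match a ratio of whole numbers left out, here the -2.17 of mouse 3, and adjusted p was 0.146 with mouse as a random block over the 8 arrays. Its swap component was -0.24 ± 0.476 (adjusted p = 0.76), of which 2 mice were positive and 2 negative. Spot 14696 read 0.08, -0.33, -0.08 and -0.03 with the mutant in Cy5 and -2.72, -0.63, -1.25 and -0.26 with the mutant in Cy3. The mean ratio was -0.65 ± 0.218 (adjusted p = 0.0711) and the swap component 0.56 ± 0.236 (adjusted p = 0.171). Of the 8 values of this spot 2 matched a ratio of whole numbers.

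Counted together, 5 of the 12 spots passed in the mean ratio, 2 with a positive value (Adarb1 spot 18422 and Adar) and 3 with a negative one (Adarb2 and 2 of Adad1). Over the whole array 30.4% of 20595 spots passed, 17% with a positive and 13.3% with a negative value, so 5 of 12 is near the background. As deposited the median of all spots lay lower by 0.16 in the mean ratio and higher by 0.11 in the swap component. The share that passed in the mean ratio was then 29.6%, of which 11.1 percentage points were positive and 18.5 negative, and 5 of the 12 spots passed again, with Adad1 spot 9959 in place of Adarb1 spot 18422. With the spots of a gene averaged, 3 of 7 genes passed in the mean ratio, Adar, Adarb2 and Adad1 (-0.81 ± 0.129, limma adjusted p = 0.0103), against 29.1% of 8605 genes. In the swap component only Adarb1 passed of 6 genes (-0.89 ± 0.134, adjusted p = 0.0297), with the mice at -0.82, -1.28, -0.71 and -0.74, against 7.9% of 8119 genes. Adad1 stood next at 0.44 ± 0.118 (adjusted p = 0.0664).

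All of these names rest on a shift between the annotation and the values, where the annotation of a spot belongs to the value 11 rows further on. The shift was found in the data, because spots of a gene then resemble each other. At 11 rows Spearman's rho across genes with at least 2 spots was 0.255 (mean ratio, 2543 genes) and 0.268 (swap component, 2256 genes). The next highest of the 201 shifts from -100 to 100 gave 0.0798 and 0.0968, and no shift gave -0.0102 and 0.0101. In windows of 800 spots around the members, 11 was the best shift in 5 of 8 windows by the mean ratio and in 7 of 8 by the swap component, and in each window by at least 1 of them. By the mean ratio alone it was not the best in the windows of Adarb2, of Adat2 and of Adarb1 spot 14946 with Adad1 spot 14445 and Apobec2 spot 14696, where it ranked no lower than 9. By the swap component it ranked second in the window of Adad1 spots 9794 and 9959. Read without the shift, the spots listed as Adarb1 had swap components of 0.20, -0.55 and 0.33, and none of them passed (lowest limma adjusted p = 0.0646). As the shift was found in these same data, this is no check of the names. Without it 5 deaminase spots passed in the mean ratio and 2 in the swap component, as many as with it.

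Other genes of RNA editing and of double-stranded RNA were taken from lists with their spots averaged. Of 25 transcripts known to be recoded by ADAR enzymes 11 were named on the array. In the mean ratio 4 passed with a positive and 3 with a negative value, and the list's median was 0.35 against -0.02 for all 8605 genes, of which 17.5% passed as positive and 11.6% as negative. Kcna1, a potassium channel edited in its pore, stood at 1.16 ± 0.12 and Cyfip2, a partner of the fragile X protein, at 1.08 ± 0.117 (moderated SE, n = 4, limma adjusted p = 0.00755 for each). Gli1, a transcription factor of hedgehog signalling, stood at -1.25 ± 0.268 (adjusted p = 0.0208). In the swap component 1 of 11 passed as positive and 2 as negative (all genes 1.07% and 6.82%). These were Gli1 at 1.09 ± 0.239, Cyfip2 at -0.99 ± 0.104 and Kcna1 at -0.58 ± 0.115 (adjusted p = 0.047, 0.0297 and 0.0379). The list's median swap component was -0.17 against -0.08 for all genes.

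Among 12 genes reported to govern nuclear import, stability or activity of ADAR2, 8 were named, and 2 passed, both positive in the mean ratio, near the 29.1% of all genes called in either direction. They were Kpna4, an importin, at 0.75 ± 0.146 and the RNA-binding protein gene Elavl1 at 0.61 ± 0.162 (limma adjusted p = 0.0163 and 0.0386), and 0 of 7 passed in the swap component (lowest value -0.51, highest 0.10). Of 24 genes for double-stranded RNA-binding and microRNA processing proteins 12 were named. Tsnax and Tsn, whose products form a nuclease complex, passed in the mean ratio at 0.52 ± 0.127 and 0.45 ± 0.126 (adjusted p = 0.0302 and 0.0455), as 2 of 12 against 29.1% of all genes, and 0 of 12 passed in the swap component (values -0.52 to 0.31). Of 40 transfer RNA modification enzymes 23 were named, with 3 positive and 2 negative calls in the mean ratio (all genes 17.5% and 11.6%). Elp2, a subunit of the elongator complex, had a mean ratio of 0.75 ± 0.143 and was the only call of 21 in the swap component (-0.60 ± 0.102, adjusted p = 0.0308). Trmt112, a partner of methyltransferases, had a mean ratio of 0.74 ± 0.164 and Pus3, a pseudouridine synthase, one of -0.79 ± 0.131 (adjusted p = 0.0228 and 0.0109).

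The list for sensing of double-stranded RNA and the response to interferon, which ADAR1 restrains, had 13 of 30 symbols named. In the mean ratio 1 passed as positive and 3 as negative, with a median of -0.43, and 4 of 13 is near the 29.1% of all genes. Tap1, a peptide transporter, stood at 1.04 ± 0.142, Ifi35 at -0.93 ± 0.16 and Psmb8, a subunit of the immunoproteasome, at -0.83 ± 0.149 (limma adjusted p = 0.00798, 0.012 and 0.0136). In the swap component 2 of 10 passed, Tap1 at -1.0 ± 0.17 and Eif2ak2, the kinase that double-stranded RNA activates, at 0.58 ± 0.117 (adjusted p = 0.0301 and 0.0407), against 7.9% of all genes. The signs were mixed in both quantities. Of the deaminases that act on free nucleosides, nucleotides and bases 2 of 10 were named and 0 passed in either quantity, with mean ratios of -0.57 and -0.31. None of 7 further deaminases of RNA or DNA was named, among them Adat3 and Apobec1.

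**Figure D4:**
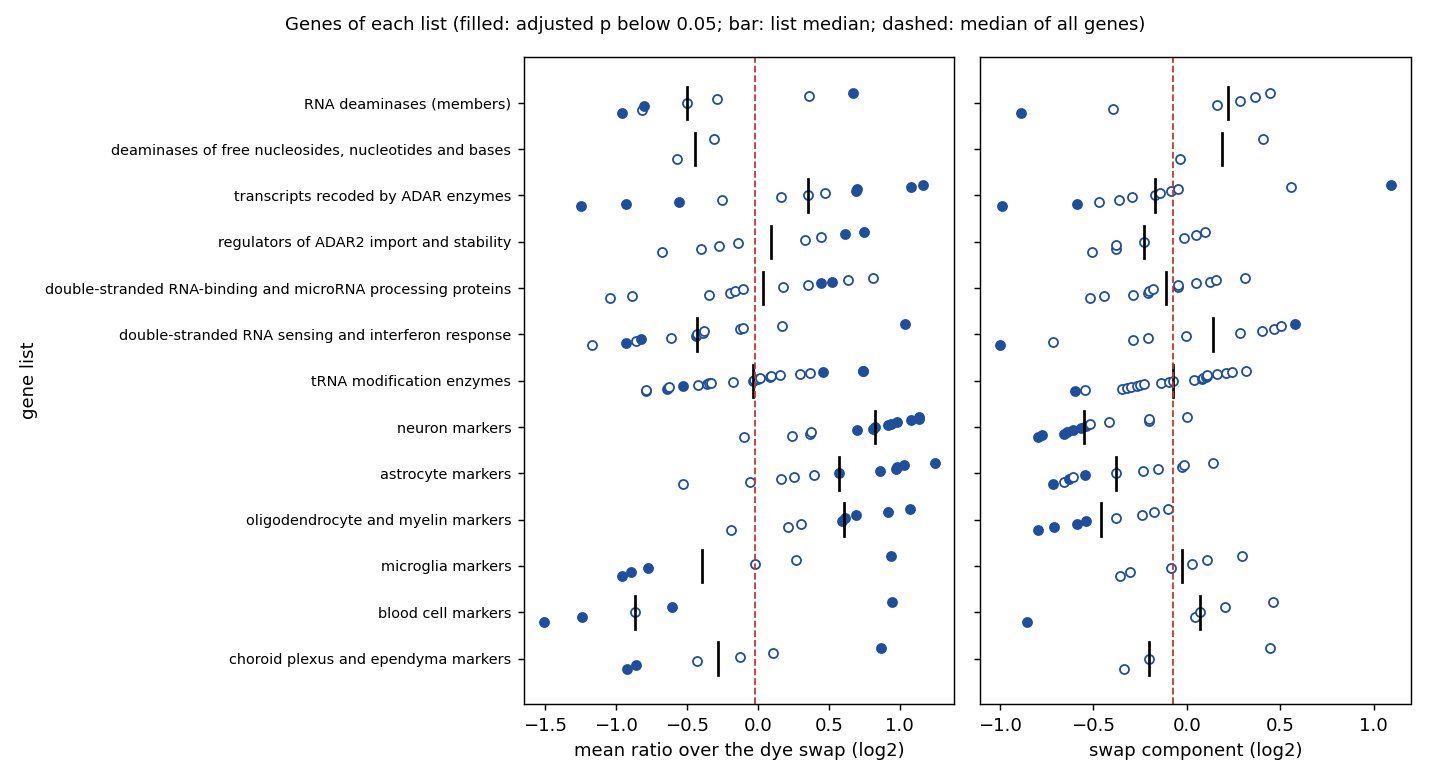
Mean ratio (left) and swap component (right), both log2, of the genes of each list (1 point per gene, spots averaged over 4 mice), filled where the limma adjusted p was below 0.05, with a bar at the list's median and a dashed line at the median of all genes. Adarb1 is the filled point at -0.89 in the top row on the right, and the median bars of the neuron, astrocyte and oligodendrocyte lists lie above the dashed line on the left and below it on the right.

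The lists of neuron, astrocyte and oligodendrocyte markers had medians with the signs of Adarb1 and Adar, positive in the mean ratio and negative in the swap component, though not every marker did. Of 13 neuron markers named, 9 passed as positive and none as negative in the mean ratio (median 0.83, range -0.10 to 1.13), and 7 of 12 passed as negative in the swap component (median -0.55, range -0.80 to -0.00156). Of 11 astrocyte markers 6 passed as positive and 3 as negative in the respective quantities (medians 0.57 and -0.38, ranges -0.53 to 1.25 and -0.72 to 0.14). Of 8 oligodendrocyte and myelin markers these counts were 5 and 4 (medians 0.61 and -0.46, ranges -0.19 to 1.08 and -0.79 to -0.10). Among all genes 17.5% passed as positive in the mean ratio and 6.82% as negative in the swap component. The part of these cell types in the values of Adarb1 and Adar was not tested.

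The genes most like 3 of the deaminases over the 8 arrays were found by Pearson's r of the array values among 8118 other named genes, as a description in which the arrays come from 4 mice and share their dye orientations. Most like Adarb1, with its 3 spots averaged, were Tnk2 (r = 0.987), Eid2 (0.983) and Selenop (0.982). Their swap components were -0.42, -0.51 and -0.47 against -0.89 for Adarb1. Most like Adar were Cox20 (0.99), Psip1 (0.982) and Fgfr1op2 (0.978), with mean ratios of 0.89, 0.49 and 0.51 against 0.67 for Adar. Most like Adarb2 were Gzmc (0.955), Zbtb41 (0.953) and Klf17 (0.947), with mean ratios of 0.21, -1.14 and -0.43 against -0.96 for Adarb2.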

How the data were processed

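The deposited values are log2 ratios of the 2 channels of cDNA arrays, and how the authors scanned, background-corrected and normalised them is not stated in the sources used here. Per the labels, RNA was reverse transcribed and labelled indirectly with Cy3 or Cy5. The log2 scale was inferred, as weak spots repeat ratios of whole numbers. The constant of an array (-0.468 to 0.705) was its largest value minus the log2 of 100000. This assumes that the largest value is a code for an empty denominator. Ratios of whole numbers were matched (within 0.001) after the constant was taken off. Values at the code (1 to 30 per array, so on 1 array the constant rests on a single value) and 221 to 553 empty cells per array were treated as missing. Array medians were subtracted. An intercept-only limma fit (version 3.58.1, R 4.3.3, with eBayes) tested the 4 mouse values against 0 over all spots, 20595 for the mean ratio (a value in every mouse) and 18797 for the swap component (values on 8 arrays), Benjamini-Hochberg adjusted with calls at 0.05. The same fit was tested on simulated data. Annotation rows up to 20000 named 12131 spots of 8653 genes, and all 12771 annotated identifiers were in the RefSeq gene table. Named were every spot of the 7 genes and, per list, at most 3 genes of the largest size among calls in each quantity. For the microglia list all calls in the mean ratio were named. The members, lists and the subtraction of medians were chosen with earlier results of these data known.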

Additional observations from a re-analysis of the deposited data

Results flagged for a closer look

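Adarb1 spot 18422 in the Cy3 orientation (mutant RNA in Cy3) read 1.82 in mouse 4, apart from the other mice, which lay between 1.96 and 1.98. The gap made up 0.888 of the range of the 4 arrays, above Dixon's critical value for 4 values. This was 1 of 46 groups of 4 values tested, and chance flags about 5% of groups. The distance is small beside the difference between the orientations of this spot.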

How the results depend on the processing

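Spot precision rests on 4 mice and 1 pool, since signal over background was not used here. Calls in the mean ratio numbered 6256 on the array and 5 among the deaminases. The array's count was 2483 to 3931 with a mouse left out and that of the deaminases 2 to 4. The latter was 3 with arrays scaled to the same spread and 3 with spots of a gene averaged. In the Cy5 orientation alone both were 0 (4748 at an unadjusted p below 0.05, limma). Calls in the swap component numbered 1473 and 2. Both counts were 0 as deposited, in the Cy5 orientation alone, with runs of 48 spots centred (4958 at an unadjusted p below 0.05), with arrays scaled (3815) and with a mouse left out. In the Cy3 orientation alone they were 6625 (of 19308 spots) and 7. A single orientation holds no swap component, so these are calls on the array values, the same as for the mean ratio. The counts for the Cy5 orientation alone are of this kind too. With 8 arrays in a fit with mouse as a random block the calls in the swap component were 3149 and 2, and with spots of a gene averaged 1 deaminase gene passed. The cause of these differences was not tested. Names without the shift gave 5 and 2 calls, from other spots.

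Signs turned as follows. In the mean ratio Adarb1 spot 14946 was -0.0445 as deposited and -0.0323 to 0.22 with a mouse left out. Spot 18422 was -0.53 and spot 18759 -1.07 in the Cy5 orientation alone, and spot 18759 was -0.11 with arrays scaled and -0.0704 to 0.79 with a mouse left out. Adat1 was 0.08 with runs centred and -0.77 to 0.28 with a mouse left out. In the swap component, which in the Cy5 orientation alone is the array value itself, Adarb1 spot 14946 was 0.0179, Adar 0.28, Adarb2 -0.68, Adad1 spots 9794, 9959 and 14445 -0.20, -0.34 and -0.55, Adat2 -0.13 and Apobec2 spot 14696 -0.0919. Adarb1 spot 14946 was 0.00775 as deposited. Apobec2 spot 2326 was 0.74 in the Cy3 orientation alone, which is the array value with its sign turned, and -0.79 to 0.14 with a mouse left out. None of these values passed.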

Other observations

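Markers of the rarer cell types of brain were split in sign. Of 6 microglia markers tested, C1qb, a complement subunit, passed with a positive mean ratio (0.94 ± 0.118, moderated SE, n = 4, limma), and Aif1 (-0.96 ± 0.157), the phosphatase gene Ptprc (-0.89 ± 0.137) and the receptor gene Trem2 (-0.77 ± 0.124) passed with negative ones. None of 6 passed in the swap component (values -0.36 to 0.29). Among all genes 17.5% passed as positive and 11.6% as negative in the mean ratio, and 7.9% passed in the swap component. Of 5 blood cell markers 1 passed as positive and 3 as negative in the mean ratio, and 1 passed in the swap component. Hba-a1, alpha globin, was positive in the mean ratio (0.94 ± 0.119). It was negative in the swap component (-0.86 ± 0.121), near the size of Adarb1 with its spots averaged (-0.89). The neutrophil protein gene S100a8 (-1.51 ± 0.217) and the erythroid heme enzyme gene Alas2 (-1.24 ± 0.227) were negative in the mean ratio. Of 6 choroid plexus and ependyma markers 1 passed as positive and 2 as negative in the mean ratio, and 0 of 3 passed in the swap component. Ttr, the thyroid hormone carrier, had a positive mean ratio (0.87 ± 0.122), and the channel gene Trpv4 (-0.93 ± 0.167) and Igfbp2 (-0.86 ± 0.215) had negative ones.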
